A study of Homo sapiens with 2 samples.

Results

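Of the 9163 distal ATAC-seq peaks of methylglyoxal (MGO)-treated 293T cells, 4141 (45.2%) overlapped no peak of the control cells by even 1 bp, and these 4141 regions are described here, out of 59026 deposited peaks in both lists. The members were selected on measured values, namely the absence of a control peak and a distance of more than 1000 bp from every transcription start site (TSS) of a GENCODE 44 gene that is protein-coding or lncRNA, so both properties are descriptions and not findings. Among MGO peaks within 1000 bp of a TSS, 4.4% had no control peak (581 of 13216). In the opposite direction, 75.7% of distal control peaks had no MGO peak (15582 of 20572). The 5022 distal MGO peaks with a control peak (shared peaks) and the 15582 distal control peaks without an MGO peak (control-only peaks) serve as comparison sets.

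ATAC-seq uses the Tn5 transposase to insert adapters into DNA that is free of nucleosomes or other bound protein, so that reads pile up over accessible chromatin. The line used, 293T, derives from human embryonic kidney and expresses SV40 large T antigen. One group received 0.5 mM MGO, a reactive dicarbonyl by-product of glycolysis that glycates proteins including histones, for 12 h, and the control group received fresh medium, although another label of the control names PBS as its treatment. Each group was 1 library from 50000 cells of this line, so no difference between conditions has a replicate check and none was tested. The deposited peaks carry no read counts, and the depth behind a peak is unknown. All intervals below are 95% intervals that cover counting error only and treat peaks as independent, which copies of a repeat are not.

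Away from promoters, accessible sites are often enhancers, where sequence-specific factors hold nucleosomes apart. AP-1, a dimer of FOS and JUN family proteins that is induced by stress and growth signals, is such a factor and binds the core TGACTCA. Other members lay in tandem repeats. The best known of these in human chromosomes is alpha satellite, the repeat of centromeres, in which some units carry the CENP-B box, the binding site of centromere protein B.

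Sequences of 2 members show repeat types that the results turn on. They are written 5′ to 3′ on the plus strand of GRCh38 (hg38). Capitals mark the AP-1 core, on either strand, in the first sequence, and the first repeat unit in the other. The first is the member of highest −log10 p and the second the strongest satellite member of at most 300 bp.
chr1:236097111-236097391: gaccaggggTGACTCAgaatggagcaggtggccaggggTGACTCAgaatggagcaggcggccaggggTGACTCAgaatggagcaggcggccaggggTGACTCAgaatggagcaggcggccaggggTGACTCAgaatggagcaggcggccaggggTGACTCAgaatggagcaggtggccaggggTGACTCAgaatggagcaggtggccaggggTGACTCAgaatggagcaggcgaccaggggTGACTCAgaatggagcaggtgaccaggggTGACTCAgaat
chr7:59235675-59235949: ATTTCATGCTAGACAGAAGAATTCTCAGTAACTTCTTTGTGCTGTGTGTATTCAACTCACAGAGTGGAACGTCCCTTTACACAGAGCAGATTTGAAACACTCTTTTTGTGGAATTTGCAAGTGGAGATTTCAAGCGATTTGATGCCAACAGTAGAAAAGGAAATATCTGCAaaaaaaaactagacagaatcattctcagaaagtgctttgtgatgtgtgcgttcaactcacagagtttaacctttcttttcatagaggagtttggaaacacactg

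The AP-1 sites of the 10 strongest non-tandem members with an AP-1 core are shown with 15 bases on each side, so that the core can be read in its context. Where a member had several cores, the one nearest to its middle is shown. Each is turned so that the core reads TGACTCA, which stands in capitals. The flank of chr6:90369163-90369199 holds a further core, which is left in lower case. The members were chosen after their values were seen.
chrX:30283676-30283712, plus strand, 24.5 kb from NR0B1: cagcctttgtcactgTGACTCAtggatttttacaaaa
chr6:136403722-136403758, plus strand, in an intron of MAP7: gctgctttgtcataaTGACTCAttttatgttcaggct
chr13:62643199-62643235, plus strand, intergenic: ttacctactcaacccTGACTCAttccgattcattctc
chr6:153167443-153167479, plus strand, 35.9 kb from RGS17: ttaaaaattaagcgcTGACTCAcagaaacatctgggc
chr9:104792021-104792057, plus strand, in an intron of ABCA1: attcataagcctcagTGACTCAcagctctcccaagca
chr3:27534124-27534160, minus strand, 49.4 kb from SLC4A7: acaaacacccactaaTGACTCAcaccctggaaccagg
chr13:90154462-90154498, plus strand, intergenic: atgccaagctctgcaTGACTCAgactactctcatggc
chr9:110745051-110745087, minus strand, in an intron of MUSK: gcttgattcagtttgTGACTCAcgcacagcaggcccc
chr6:90369163-90369199, plus strand, 72.2 kb from BACH2: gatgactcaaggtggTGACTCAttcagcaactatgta
chr10:11539458-11539494, minus strand, in an intron of USP6NL: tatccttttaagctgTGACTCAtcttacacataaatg

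The members fell into 4 sequence classes. A member was called tandem when its own bases, or its bases with 500 bp of flank on each side, lay over at least 50% in tandem repeats. Tandem members with a period within 5 bp per unit of 171 bp or of a multiple of it, the unit length of alpha satellite, were called satellite members and numbered 383, or 9.25% of members (Wilson interval 8.40 to 10.2%). Other tandem repeats made up 7.97% (330 members). Of the remainder, 1009 members (24.4% of all) carried an AP-1 core and 2419 (58.4%) did not. Satellites made up 5.08% of shared peaks and 0.571% of control-only peaks. Other tandem repeats made up 6.83% of shared peaks and 1.36% of control-only peaks. Counted over bases, tandem sequence covered 15.9% of members, 16.5% of shared peaks and 2.36% of control-only peaks, so it was found in both kinds of MGO peak.

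**Figure D1:**
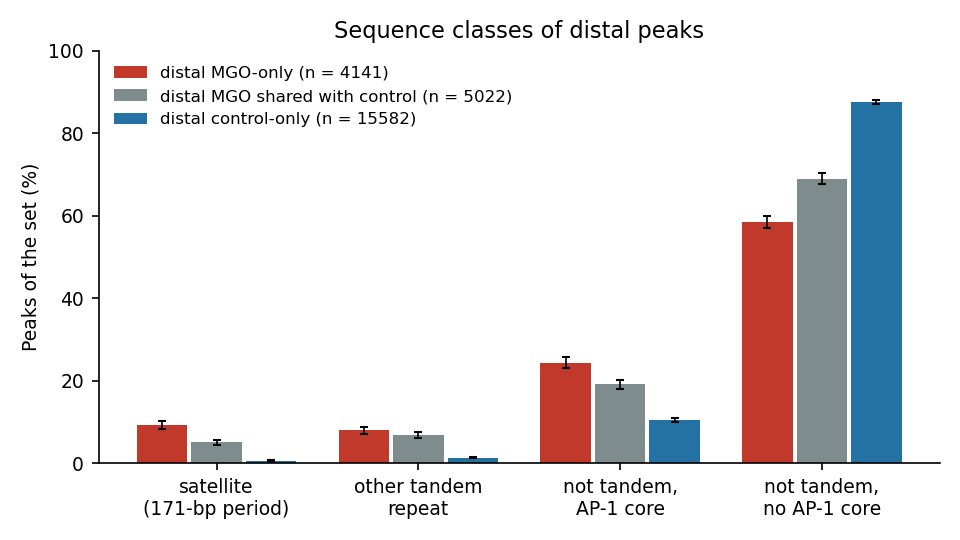
Percentage of the peaks of each distal set (y axis) in 4 sequence classes (x axis) for MGO-only, shared and control-only peaks; error bars are 95% Wilson intervals. Satellites make up 9.25% of MGO-only peaks and 0.571% of control-only peaks, and the AP-1 class 24.4% and 10.5%.

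The class make-up changed with peak strength. Of the 3044 members with a −log10 q (q is the p-value corrected by the authors' peak caller for multiple testing) below 2, 4.73% were satellites and 20.4% were AP-1 members. Of the 1004 members from 2 to below 5, 17.5% were satellites and 37.4% AP-1 members. Of the 93 members at 5 or more, 63 were satellites (67.7%, interval 57.7 to 76.4%), 14 were other tandem repeats, 12 were AP-1 members and 4 belonged to the rest. At 5 or more, satellites made up 159 of 749 shared peaks (21.2%) and 3 of 443 control-only peaks (0.677%). Shared satellites were stronger than those of the members, with a median −log10 p of 9.46 against 4.93.

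The satellite members lay far from genes. They were found on 22 chromosomes, with none on chromosomes 2 and Y, and chromosomes 7, 1 and 5 held 148 of the 383 (55, 53 and 40). Their median distance to a TSS was 1.24 Mb, 97.4% were intergenic and 62.9% were more than 1 Mb from any TSS. The CENP-B box was found in 294 of them (76.8%, interval 72.3 to 80.7%), and no member outside the satellite class had one. The share of satellite peaks with the box was 84.3% in shared and 78.7% in control-only peaks, with intervals that overlap that of members (79.3 to 88.3% and 69.0 to 85.9%). A total of 353 satellite members formed 1 sequence family, in which each peak aligned to another over at least 70% of the longer peak at 80% identity or more. This family had a median GC content of 39.0% and a median −log10 p of 5.10. Another 16 satellite members belonged by alignment to a GC-rich repeat family and met the period limit only.

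Of the 10 members of highest −log10 p, 7 were satellites, with −log10 p from 12.0 to 14.5. The strongest of these was chr18:18284292-18284634, with a −log10 p of 14.5 and a fold enrichment over background of 6.16. The 3 on chromosome 7, chr7:59235675-59235949, chr7:60288156-60288719 and chr7:59809467-59809834, had ZNF716, a zinc finger gene, as nearest protein-coding gene at 1.79 to 2.84 Mb. Their −log10 p values were 13.9, 13.5 and 13.02. The others were chr4:50046359-50046786 (12.2; 1.02 Mb from CWH43), chr20:27266941-27267367 (12.1; 1.57 Mb from ZNF337) and chr15:19222186-19222541 (12.0; 1.32 Mb from GOLGA6L6). Control peaks lay 1.49 to 1118 kb from these 7 members.

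Satellite peaks rest on sequence that recurs in the genome. The median number of exact genome copies of 30-base words, sampled every 10 bases, was 1370 for satellite members, 6 for other tandem members and 1 for AP-1 members. Of all members, 24.2% had a median of at least 2 copies, 16.5% at least 10 and 12.5% at least 100. These shares were 21.5, 12.8 and 7.98% in shared peaks and 8.55, 4.47 and 2.53% in control-only peaks. The authors removed multi-mapping reads before peak calling, and how reads were placed under these repeats cannot be seen in peak lists. The part of read placement in the satellite count was not tested.

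The 3 strongest members were short tandem arrays and not satellites. The first, chr1:236097111-236097391, had a −log10 p of 43.7 and a fold enrichment of 5.98 and consisted of a 29-bp unit with an AP-1 core in each of 10 copies. Its nearest protein-coding gene was NID1, which encodes the basement-membrane protein nidogen, at 32.0 kb, and a control peak lay 5.38 kb away. The second, chr21:43262491-43262791, had a −log10 p of 28.7, the highest fold enrichment of any member (7.31), and a 42-bp best period with no AP-1 core. It lay 92.3 kb from CRYAA, a lens crystallin gene, and 154 kb from the nearest control peak. The third, chr4:49147089-49147521, had a −log10 p of 24.4 but a fold enrichment of only 2.25, and lay 118 kb from CWH43, with a control peak at 1.64 kb. Its best period was 65 bp within the peak and 60 bp with the flanks.

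Arrays also held the most AP-1 cores. The member chr16:89994826-89996080, 11.7 kb from DBNDD1, had 42 cores in 1255 bp at a 41-bp period. The member chr7:157932566-157933929, in an intron of PTPRN2, a receptor-type phosphatase of secretory granules, had 37. The member chr8:629806-631107, in an intron of ERICH1, had 25, and chr1:73183465-73184000, 891 kb from LRRIQ3, had 14 at an 84-bp period. The −log10 p of these 4 was 4.14 to 6.72, far under that of the array near NID1, which had 10 cores. The member chr13:62642832-62643608, whose site is shown above, also had 10. It was classed as non-tandem, but 30.5% of its bases were tandem, with a best period of 45 bp. Core number and peak strength did not follow one order among the 5 arrays.

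The widest members were repeats too. The widest, chr1:122950335-122953027 (2693 bp), was satellite sequence with 7 CENP-B boxes. The next, chr15:21110546-21112768 (2223 bp), was an array of a 26-bp unit 244 kb from POTEB2. The third, chr19:58337156-58339323 (2168 bp), lay in an intron of the zinc finger gene ZSCAN22, and 49.7% of its bases were tandem, just under the limit for the tandem class. The median width of members was 414 bp, against 557 bp for shared and 495 bp for control-only peaks.

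Further sequence families joined members from different chromosomes. In all, 768 members (18.5%) aligned to at least 1 other member, and 3373 stood alone. The second family had 147 members on 22 chromosomes with a median GC content of 77.0% (60.7 to 85.7%), a most frequent period of 127 bp and a median of 138 genome copies. Its letters resemble the GC-rich repeat of SVA retrotransposons, a likeness not checked against a repeat annotation. Of these 147 members, 97 were intronic, in contrast to the satellites. Alignment to this family over at least 50% of the peak was found for 157 members, 15 shared peaks and 42 of the 15582 control-only peaks. Since the family was assembled from members, their count is a description. Its 3 strongest members were chr1:248676653-248677015 (−log10 p 7.43), 5.31 kb from the olfactory receptor gene OR14I1, chr9:120496062-120496614 (7.14) in an intron of the centrosomal gene CDK5RAP2, and chr2:27557733-27558234 (5.93) in an intron of C2orf16. The third family (56 members, median GC content 58.0%, 188 copies) was not tandem. In the fourth, 36 of 39 members aligned to RN7SL1, the RNA of the signal recognition particle from which Alu elements derive. The seventh (13 members, 7584 copies) had the most genome copies of the 11 families with 5 or more members, and the eighth (13 members, period 78 bp) held the strong chromosome 21 member. Over all members, alignments to RN7SL1 were found in 7.44%, against 5.56% of shared and 6.53% of control-only peaks.

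Outside tandem repeats, the AP-1 core was more frequent in members than in both other sets. Of 3428 non-tandem members, 29.4% had at least 1 core (interval 27.9 to 31.0%), against 21.7% of 4424 shared peaks and 10.8% of 15281 control-only peaks. The difference was 7.73 percentage points from shared peaks (Newcombe interval 5.79 to 9.69) and 18.7 points from control-only peaks (17.1 to 20.3), although members were the narrowest of the sets. The same letters in reverse order, ACTCAGT, which keep the base composition, were found in 7.99% of all members, 7.91% of shared and 8.16% of control-only peaks. In the central 300 bp of each peak, the core was found in 16.4% of all members, 10.4% of shared and 5.64% of control-only peaks. In the 35116 RefSeq promoters of 300 bp (GRCh38.p14) it was found in 4.95%. An excess of this core in MGO-only peaks was already known from earlier results of these data, and the values are given as a description.

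Across all words of 7 bases, counted on both strands in non-tandem peaks, the AP-1 core stood apart in the comparison with control-only peaks. Of 5525 words present in at least 100 members, it had the highest ratio of density in members to density in control-only peaks, 4.15 (0.817 against 0.197 per kb). The median ratio of all words was 0.996 and 99% of words were under 1.45. The next 4 words are the core shifted by 1 base on either strand, the first of them being ATGAGTC, and had ratios of 2.79 to 3.78. The core written backwards had a ratio of 1.25. Against shared peaks the density ratio of the core was 2.01 and ranked 4 among the words. Words above it included ATGAGTC (2.17), which is the core shifted, and ACCAATC (2.10), which is not.

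**Figure D2:**
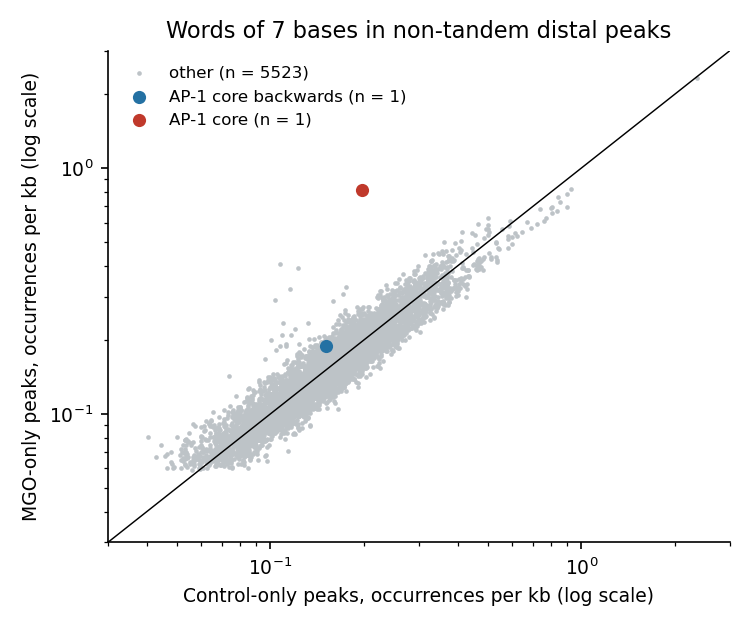
Density of each 7-base word in non-tandem MGO-only peaks (y axis, occurrences per kb) against control-only peaks (x axis, occurrences per kb), both log scales, with the line of equality; each point is 1 of 5525 words. The AP-1 core lies far above the line at 0.817 against 0.197 per kb, and the same letters backwards lie in the cloud.

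The share of members with an AP-1 core was higher in stronger peaks. The 3428 non-tandem members were divided by −log10 p into 5 groups of equal size. From the weakest to the strongest group, 17.1, 20.1, 24.1, 33.0 and 52.9% of members had a core. The strongest group, with −log10 p of 4.50 to 10.7, had a core in 363 of 686 peaks, and its interval was 49.2 to 56.6%. In shared peaks the 5 groups held 16.4, 19.3, 21.9, 27.1 and 23.7%. The shared groups with −log10 p of 4.42 to 6.33 held at most 27.1% (interval 24.3 to 30.1%). In control-only peaks the 5 groups held 9.78 to 11.6%. The median width of the members' groups was 402 to 438 bp, with the weakest group the widest. The backwards letters were found in 6.86 to 10.6% of the members' groups. By GC content, the 5 groups of members from lowest to highest held a core in 31.5, 36.6, 38.5, 27.01 and 13.6%. By location, 27.7% of intergenic, 31.2% of intronic and 24.2% of exonic non-tandem members had one (interval of the last 17.5 to 32.4%).

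**Figure D3:**
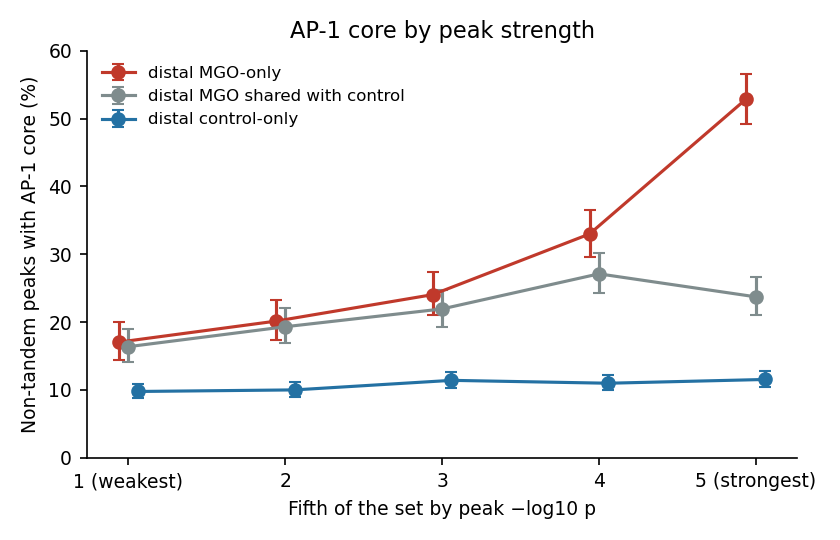
Percentage of non-tandem distal peaks with an AP-1 core (y axis) in 5 equal groups of each set by −log10 p (x axis, weakest to strongest), with 95% Wilson intervals. The MGO-only share runs from 17.1 to 52.9% and the control-only share stays between 9.78 and 11.6%.

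AP-1 members often held more than 1 core. Of the 1009, 710 had 1 core, 243 had 2 and 56 had 3 or more, so that 29.6% had at least 2 (interval 26.9 to 32.5%). This share was 18.6% in shared and 6.27% in control-only peaks of the class. Where a member had exactly 2 cores, their starts were a median of 69.0 bp apart, against 139 bp in shared and 213 bp in control-only peaks. Peak width limits this spacing, and its part was not tested. Median widths of the class were 448 bp in members, 624 bp in shared and 597 bp in control-only peaks. Members with at least 2 cores had a median −log10 p of 4.55 and those with 1 core 4.09, with median widths of 490 and 437 bp.

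The bases around the core differed between the sets. In members, 14.3% of 1382 cores were flanked as aTGACTCAt, which is palindromic outside the centre, and 13.5% as gTGACTCAt. In control-only peaks these were 6.50 and 6.90% of 1754 cores, and the most frequent form was cTGACTCAg (9.46%), which made up 5.64% in members. A T directly before the core stood in 8.97% of member cores, 10.7% of shared cores and 22.5% of control-only cores. Shared peaks were closer to members, with 13.8% of 1168 cores as aTGACTCAt.

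Other motifs were counted in the same way. Whole-peak shares depend on width, and members were the narrowest set. The CTCF core, bound by the insulator protein CTCF, was found in 2.80% of members, 8.98% of shared and 8.13% of control-only peaks. GATA factor sites (AGATAA) were found in 21.8, 25.8 and 33.5%, ETS sites (CCGGAAG) in 1.86, 5.42 and 2.16%, and TEAD sites (ACATTCCA) in 2.49, 4.46 and 3.31%. The NRF2 antioxidant element (TGACNNNGC), which mediates the response to electrophiles and can overlap an AP-1 core, was found in 17.7% of members, 21.8% of shared and 17.4% of control-only peaks. The heat shock element was found in 0.507% of members, 0.438% of shared and 0.680% of control-only peaks. The cAMP response element (TGACGTCA) was found in 0.580, 0.956 and 0.270%, the RUNX site (TGTGGTT) in 8.52, 9.06 and 11.0%, and the E-box (CACGTG) in 5.17, 9.30 and 6.62%. In the central 300 bp, where width is equal, 3 of these motifs had their highest share in members. Their leads over the next set were small, and no intervals are given for these shares. The cAMP response element was found in 0.411% of members, 0.358% of shared and 0.154% of control-only peaks, against 1.85% of RefSeq promoters. The heat shock element was found in 0.386, 0.159 and 0.302%, against 0.490% of promoters. The NRF2 element was found in 11.28, 11.25 and 9.72%, against 13.3% of promoters. The CTCF core was found in 1.88% of members, 4.94% of shared and 5.06% of control-only peaks, against 3.36% of promoters. GATA sites were found in 14.8, 13.6 and 20.3%, against 10.3% of promoters. ETS, TEAD, RUNX and E-box sites were found in 1.11, 1.67, 5.17 and 3.14% of members, 2.69, 1.85, 4.68 and 4.44% of shared peaks and 1.28, 1.77, 5.89 and 3.44% of control-only peaks. Over whole peaks the CENP-B box followed the same order as the AP-1 core, at 7.10, 4.30 and 0.475%. The letters GGAATGGAA of the pericentromeric simple satellite were found in 1.52% of members, 3.78% of shared and 1.16% of control-only peaks, and TTAGGGTTA of telomeres in 0.217, 0.558 and 0.314%. A match is a run of letters and not a bound site. Within the members, the NRF2 element was found in 25.8% of the AP-1 class and 16.5% of members without core or tandem repeat, and GATA sites in 30.1 and 23.4%. AP-1 members were the wider of these classes, with medians of 448 and 398 bp. Of the 1382 cores in the AP-1 class of members, 96 (6.95%) were of the NRF2 type, in which the core is itself part of an NRF2 element. Such a core counts for both motifs, so the split by core in part sets the NRF2 shares. Whether NRF2 elements apart from the core differ between these classes was not tested.

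Strong AP-1 members lay in introns and in intergenic sequence, and their 30-base words had a median of 1 genome copy. The member chrX:30283570-30283994, 24.5 kb from NR0B1, a nuclear receptor gene, had a −log10 p of 9.50 and 2 cores. The member chr6:136403132-136403834, in an intron of MAP7, which encodes a microtubule-associated protein, had 9.26 and 2 cores. The member chr9:104791539-104792081, in an intron of the cholesterol transporter gene ABCA1, had 8.72 and 1 core. The member chr3:27533861-27534432, 49.4 kb from the bicarbonate transporter gene SLC4A7, had 8.60 and 3 cores. Within chr6:90369073-90369423, 72.2 kb from BACH2, a repressor that binds AP-1-like elements, there were 2 cores at a −log10 p of 8.16. An intron of NFATC2, a partner of AP-1 in T cells, held chr20:51446823-51447441 with 3 cores at 7.82. These 6 were chosen after their values were seen, from the top of the AP-1 class. Control peaks lay 0.609 to 34.4 kb from the 10 strongest AP-1 members, nearest to chr13:90154417-90154748 (0.609 kb) and chr9:110744476-110745160 (1.22 kb). The member in NFATC2 lay 114 kb from one.

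The 2419 members with neither tandem repeat nor AP-1 core were the weakest class, with a median −log10 p of 3.84. Their strongest, chr16:26685187-26685463, had a −log10 p of 10.7 and a median of 45 genome copies, 381 kb from C16orf82. The next was chrX:115736946-115737235 (9.86), in an intron of the noncoding gene DANT2, with a GC content of 73.8% and 18 copies. The third was chrX:102809839-102810153 (8.29), single-copy sequence in an intron of LINC00630. Close to DGCR6 on chromosome 22 lay chr22:18896187-18896589 (7.53) and chr22:18890744-18891032 (6.95), with control peaks 1.62 and 1.43 kb away. These 5 were chosen after their values were seen.

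By annotation of the midpoint, 48.5% of members were intergenic (interval 46.9 to 49.99%), 48.4% intronic and 3.14% exonic. Shared peaks were 51.8% and control-only peaks 41.9% intergenic. AP-1 members were 40.5% intergenic and 56.5% intronic, like the control-only peaks of the same class (42.2 and 54.2%). The median distance of members to a TSS was 27.5 kb (order-statistic interval 26.1 to 29.5 kb), longer than that of shared (22.8 kb) and control-only peaks (23.3 kb). Without satellites the class medians were near those of the other sets. AP-1 members had a median of 23.6 kb, other tandem members 18.9 kb and members of none of these classes 24.2 kb. Of all members, 6.01% were more than 1 Mb from a TSS, against 3.11% of shared and 0.398% of control-only peaks.

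**Figure D4:**
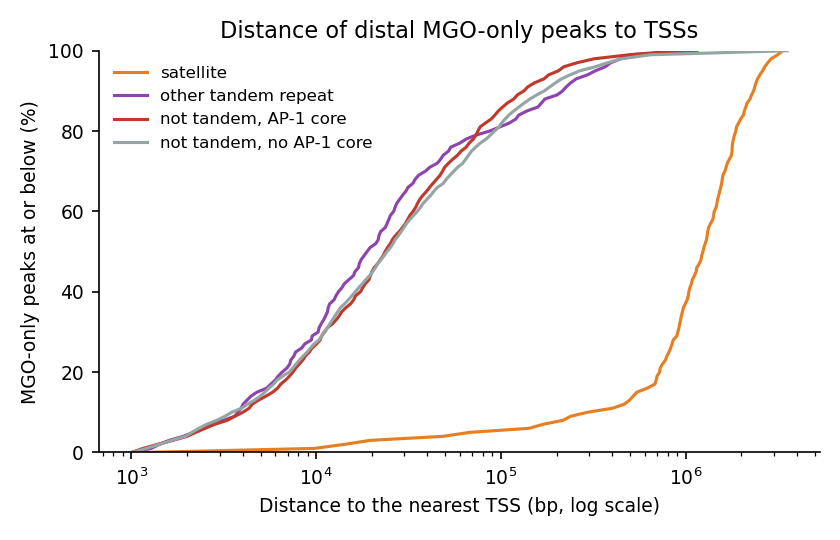
Cumulative percentage of distal MGO-only peaks (y axis) by distance to the nearest TSS (x axis, bp, log scale) in each sequence class. The 3 other classes run together with medians of 18.9 to 24.2 kb, and the satellites lie far to the right with a median of 1.24 Mb.

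The members nearest to the limit of 1000 bp were chr1:244353650-244353988 in an intron of C1orf100 (1001 bp from its TSS) and chr21:46143745-46144155 in an intron of FTCD (1004 bp). Just outside it were MGO peaks 998 bp from TLE3 and 977 bp from OPN5, also without a control peak. At the limit of overlap, chr3:89350604-89351083 in an intron of EPHA3 and the intergenic chr18:35721588-35721862 each lay 2 bp from a control peak. The latter was 5218 bp from a TSS of ENSG00000267397 and 66.9 kb from GALNT1, its nearest protein-coding gene. Peaks in introns of PALLD and CARMIL1 overlapped a control peak by 1 and 2 bp and were therefore shared. Such cases were few, as 3.55% of members had a control peak within 1000 bp and the median distance was 21.7 kb. The members farthest from a TSS were chr1:125110677-125111140 at 3.53 Mb and chr1:124925329-124926139 at 3.34 Mb.

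The peaks were weak as a group. The median fold enrichment of members was 2.86 (quartiles 2.72 and 3.04) and the median −log10 p 3.97 (3.69 and 4.49), close to control-only peaks (2.88 and 3.99) and under shared peaks (3.03 and 4.87). A −log10 q of at least 2, the limit of the authors' downstream analysis, was reached by 26.5% of members, 63.1% of shared and 39.6% of control-only peaks. By class it was reached by 62.4% of satellites, 34.2% of other tandem members, 38.4% of AP-1 members and 14.8% of the rest.

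Members were unevenly spread over chromosomes. Genome-wide there were 1.41 members per Mb of sequence. Chromosome 13 held 3.61 per Mb, followed by chromosome 1 with 2.62 and chromosome 22 with 1.97, and the lowest was chromosome 14 with 0.629. On chromosome 13, 306 of 354 members (86.4%) lay between 60 and 100 Mb, a density of 7.65 per Mb against 0.828 in the remainder. Shared and control-only peaks were also gathered there, with 81.4% and 73.1% of their chromosome 13 peaks in the same 40 Mb. The 10-Mb bin with most members of the genome was 60 to 70 Mb of chromosome 13 (116 members, 222 control-only peaks), and the next were 80 to 90 Mb (78) and 70 to 80 Mb (72). The bin of 120 to 130 Mb of chromosome 1 held 51 members, 49 of them satellites, and 22 control-only peaks. The AP-1 class made up 16.0% of members in the chromosome 13 block, against 24.4% of all members. DNA copy number of this line was not used here, and its part in these densities was not tested.

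**Figure D5:**
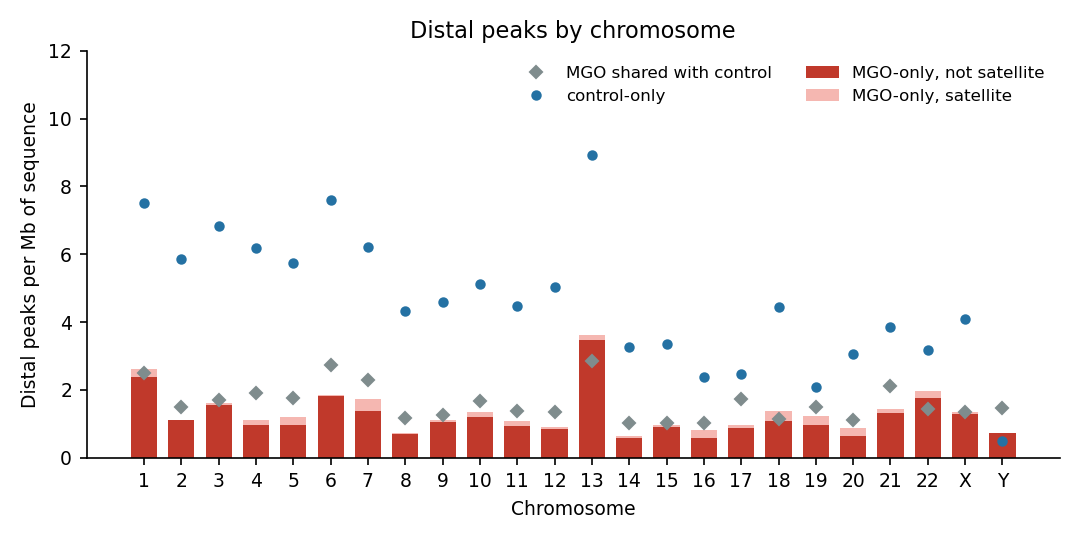
Distal peaks per Mb of sequence (y axis) on each chromosome (x axis). Bars give MGO-only peaks, with satellites in the pale upper part, and points the shared and control-only peaks; chromosome 13 stands highest for MGO-only peaks at 3.61 per Mb and for control-only peaks at 8.93.

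Members seldom lay side by side. The nearest other member was a median of 151 kb away, and 243 members (5.87%, interval 5.19 to 6.63%) had another within 10 kb. This was 9.10% for shared and 11.4% for the more numerous control-only peaks. Of satellite members, 18.5% had another satellite member within 10 kb, and of AP-1 members, 1.19% had another AP-1 member. There were 119 runs of members with neighbours at most 10 kb apart, of which 5 held 3 members and none more. The tightest, chr7:59235675-59241142, spanned 5.47 kb of satellite. A run of non-satellite members, chr13:70828836-70842837, spanned 14002 bp at 720 kb from KLHL1. The others were chr1:122889353-122904556 and chr1:122936769-122953027, both satellite, and chrY:10958305-10973999, at 1.43 Mb from TSPY10. Chromosome Y held 19 members, 39 shared and 13 control-only peaks. Whether the cells carry this chromosome, and how reads were placed on it, was not tested. Only the run near KLHL1 had a control peak within it.

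The members were nearest to 2457 different protein-coding genes, of which 1829 had a single member. ZNF716 had most (52 members, 51 of them satellites, median distance 2.05 Mb), followed by SRGAP2C (50, of which 49 satellites, 1.78 Mb). EMB, the gene of the transmembrane glycoprotein embigin, had 29, all satellites, at 1.32 Mb. Shared peaks nearest to ZNF716, SRGAP2C and EMB numbered 54, 11 and 20, and control-only peaks 16, 14 and 14. The other 7 were all on chromosome 13. PCDH9, a protocadherin gene of neuronal adhesion, had 38 (9 of them inside the gene). SLITRK1 and SLITRK5, which encode synaptic transmembrane proteins, had 32 and 19. GPC5, a cell-surface heparan sulfate proteoglycan gene, had 28 (11 inside), ENSG00000237378 27, ENSG00000285566 23, and KLHL1, a kelch-family gene, 21. Control-only peaks were nearest to these 7 genes as well, from 26 for ENSG00000237378 to 98 for PCDH9. So were shared peaks, from 8 for SLITRK1 and ENSG00000285566 to 39 for PCDH9. Among AP-1 members alone, SLITRK1 had 6, and KLHL1 and RAB32, a small GTPase gene, had 5 each, with no control-only peak of that class nearest to RAB32. CITED2, a transcriptional co-regulator gene, EDEM1, a gene of endoplasmic reticulum-associated degradation, LRRC7 and ENSG00000285566 had 4 each, against 3, 0, 2 and 4 control-only peaks of the class. These genes were picked for their AP-1 members. The class held 1643 control-only peaks for 20007 protein-coding genes, so most genes had none, and a count of 0 is not particular to RAB32 or EDEM1.

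Genes of the response to MGO were sought within 50 kb of a member. Of all 20007 protein-coding genes, 14.4% had a member within 50 kb of a TSS. None of 15 targets of NRF2, the regulator of antioxidant genes, had one, which allows a share of up to 20.4% (Wilson interval). A control-only peak lay within 50 kb of 7 of the 15 (46.7%), against 42.7% of all protein-coding genes. Of 8 targets of HSF1, the regulator of chaperone genes, 3 had a member. These were DNAJB1 (44.9 kb, in an exon of PTGER1), HSPB1 (34.9 kb, in an exon of SRRM3) and HSP90AA1 (22.6 kb, inside its own intron), with −log10 p of 3.48 to 3.70. Of 8 targets of ATF4, a factor of the integrated stress response, SESN2 (37.3 kb) and DDIT4 (36.2 kb) had one. Of 10 AP-1 subunit genes, FOS had 1 member at 42.8 kb, and JUNB had 2, at 8.50 kb (−log10 p 5.67) and 33.5 kb. Of 10 genes of MGO detoxification, FN3KRP, a ketosamine kinase gene, had 1 at 44.5 kb. None of these members carried an AP-1 core.

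Of 10 genes with known AP-1 input, a list of cytoskeleton, matrix and other genes, 3 had a member, and 2 of them are described. CCND1, the cyclin D1 gene, had one at 44.3 kb with 1 core and a −log10 p of 3.68. MMP10, a matrix metalloproteinase gene, had the strongest of all listed genes at 49.3 kb, chr11:102730885-102731290, with a −log10 p of 7.70 and no core. Each of the 6 lists had a Wilson interval that held the 14.4% of all genes.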

How the data were processed

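Broad peak lists of ATAC-seq on 293T cells were analysed, 1 control library and 1 MGO library. Per the labels and the study's methods, the authors aligned reads to GRCh38 with BWA 0.7.15, used Picard, dropped reads that were mitochondrial or mapped to several places, subsampled reads to equal depth and called broad peaks with MACS2 outside blacklisted regions. The Picard version is 2.16.0 in the labels, and another is named in the methods. The MACS2 version is not given in the sources used here. The authors deposited for every peak a ratio (fold enrichment), a −log10 p-value, a −log10 q-value and the peak caller's score. The score was not used. Read counts are not part of the lists, so depth and its error are unknown. All 22379 MGO and 35515 control peaks on chromosomes 1 to 22, X and Y were used as deposited.

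The members and lists were chosen with earlier results of these data known. TSSs were 194269 start positions from GENCODE 44. Location was read at the peak midpoint. Repeat bases were to be taken from soft-masking, but the reference is in capitals, so the stated substitute was used, in which a base is tandem when 40 of 50 bases equal those up to 500 bp further on. Families came from blastn 2.17.0. The 4 sequence classes and the 70% cover for families were defined after values had been seen. The tandem class was then widened, because short arrays without tandem flanks had first fallen outside it. Motifs were matched on both strands. The computations used Python 3.11.15, pandas 2.3.3, scipy 1.17.1 and statsmodels 0.14.6. Overlap, TSS distance, tandem and motif searches were tested on simulated data. No test between conditions was made. Named peaks were the 10 of highest −log10 p, the 5 with most AP-1 cores, the 5 densest runs, the 3 widest, the 2 nearest to and 2 farthest from a TSS, and those beside the limits. Named genes were the 10 nearest to most members, the genes nearest to named peaks, and listed genes with a member within 50 kb. Alternatives were stricter q limits, other definitions of a shared peak and other TSS limits. A few items are not reported here, among them the sequences of some named peaks.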

Additional observations from a re-analysis of the deposited data

How the results depend on the processing

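Of 43 values, the 6 main results under 7 alternatives fixed at the start and 1 under an alternative added later, 22 stayed within the counting interval of the main value (for the number of members, within 1.5 times) and 21 did not. Limits on q moved all 6. With a −log10 q of at least 2 for MGO peaks there were 1097 members, with 56.4% intergenic, 3.92% within 10 kb of another, a median TSS distance of 37.0 kb, 26.8% repeat bases and 36.1% with an AP-1 core. With at least 5 these were 93, 91.4%, 0%, 1014 kb, 56.3% and 16.1%. With at least 2 in both lists they were 1459, 54.6%, 3.63%, 32.8 kb, 25.3% and 35.1%. The median TSS distance was 30.0 kb with a limit of 2000 bp and 53.1 kb to protein-coding TSSs when only these were used. For the same 4282 peaks the distance to a TSS of either gene type was 25.9 kb. This was the measure computed first, and it was replaced and kept as an alternative after its value had been seen, because the setting names protein-coding TSSs. Fewer peaks can leave fewer neighbours, but shares at equal peak numbers were not computed, and the cause of the shifts was not tested. The AP-1 share thus depends on the q limit and is lowest at 5, where satellites prevail. No paired analysis was possible because each condition is 1 library.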
